A study of Mus musculus with 6 samples.

Results

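A set of 10 marker genes of alveolar type 1 cells was followed in fetal mouse lungs with and without the Dppa2 gene: Ager, Pdpn, Cav1, Emp2, Gprc5a, Rtkn2, Clic5, Hopx, Akap5 and Cldn18. The set is a list of gene names; no measured value enters its rule, although it was drawn up with earlier results of these data known. Through RefSeq accessions 9 of the 10 genes were matched to a probe, by 13 probes in all, and all 9 were among the 19856 features (genes, or unnamed transcripts) that were tested. Rtkn2 was not matched to a probe and is not analysed here. All 13 probes lay well above background on all 6 arrays, and none of their spots was saturated or flagged as an outlier.

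Alveolar type 1 cells are the thin, very broad cells that line most of the gas exchange surface of the lung. They arise from distal epithelial progenitors late in gestation, flatten as the air sacs widen, and lie against the capillaries with little between them but a shared basement membrane. Their marker genes encode membrane receptors, junction and caveolar proteins and regulators of the cell's shape, and the transcription factor Nkx2-1 and the YAP/TAZ coactivators with their TEAD partners are known to act on this cell type. Several of the markers are also expressed elsewhere in the lung, Cav1 in blood vessel endothelium, Pdpn in lymphatic endothelium and mesothelium, and Hopx in heart muscle.

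RNA of whole lungs from 6 mouse embryos at E18.5, near the end of gestation, was hybridised to 1 array each. The wild type group, 3 embryos, carried 15-1+/+ with 15-2+/+, and the knockout group, 3 embryos, carried 15-1Flox/Flox with 15-2-/-. ECAT15-2 is Dppa2 and ECAT15-1 is Dppa4, and all embryos came from crosses of parents heterozygous at both loci. Each knockout embryo thus carried the floxed Dppa4 alleles besides the null Dppa2 alleles. The line was derived from 129Sv embryonic stem cells, was bred to C57/BL6 and had 1 cross to a Cre or FLPe transgenic line, and the background of that line is not known. Whole lung holds all cell types of the organ, so that a smaller number of type 1 cells and less of a transcript per cell cannot be told apart.

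Between 63.3% and 68.8% of the probes lay well above background per array. Wild types 1 and 2 shared slide 1 with knockout 3, knockouts 1 and 2 shared slide 3, and wild type 3 was the only array of this series on slide 2. The labels' raw data names share a number for wild types 1 and 2, for knockouts 1 and 2, and for wild type 3 with knockout 3. What this number stands for is not stated. Wild types 1 and 2 had signal from Y-linked genes and the other 4 arrays had none above background. Dppa2 had levels of -3.25, -3.52 and -3.57 in wild types 1, 2 and 3 and of -4.94, -4.98 and -4.08 in knockouts 1, 2 and 3, a difference of -1.22 that did not pass (limma adjusted p = 0.0603). Its probe was above background on all 6 arrays, the 3 knockouts included, and whether it lies in the deleted part is not known. The Dppa4 probe was above background on 0 arrays.

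The mean levels of the 9 measured type 1 cell markers differed by 0.40 log2 units or less between knockout and wild type lungs. Of the 9 genes tested 0 passed the threshold (limma, Benjamini-Hochberg adjusted p under 0.05), against 1.34% of all features (0.72% higher in the knockouts and 0.619% lower). Nothing is read from 0 of 9 beside so small a share. An unadjusted p under 0.05 was found for 0 of the 9, against 25.7% of all features (15.4% higher and 10.3% lower). The differences, given throughout in log2 units with the wild type mean subtracted from the knockout mean, ran from -0.40 for Clic5 to 0.24 for Cav1, with adjusted p-values from 0.197 to 0.828. Their median was -0.06, beside 0.01 over all features, with 3 genes higher and 6 lower. The 95% confidence intervals of all 9 genes lay within 1 log2 unit, a 2-fold change, on either side of 0, as did those of 82.9% of all features. Over the 9 genes the bounds farthest from 0 were -0.80, for Clic5, and 0.52, for Cav1. A p-value above the threshold does not show that levels were equal, and these intervals give the sizes that the data allow. The labels name separate embryos but not their litters, so that the p-values measure the spread between these 6 lungs.

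**Figure D1:**
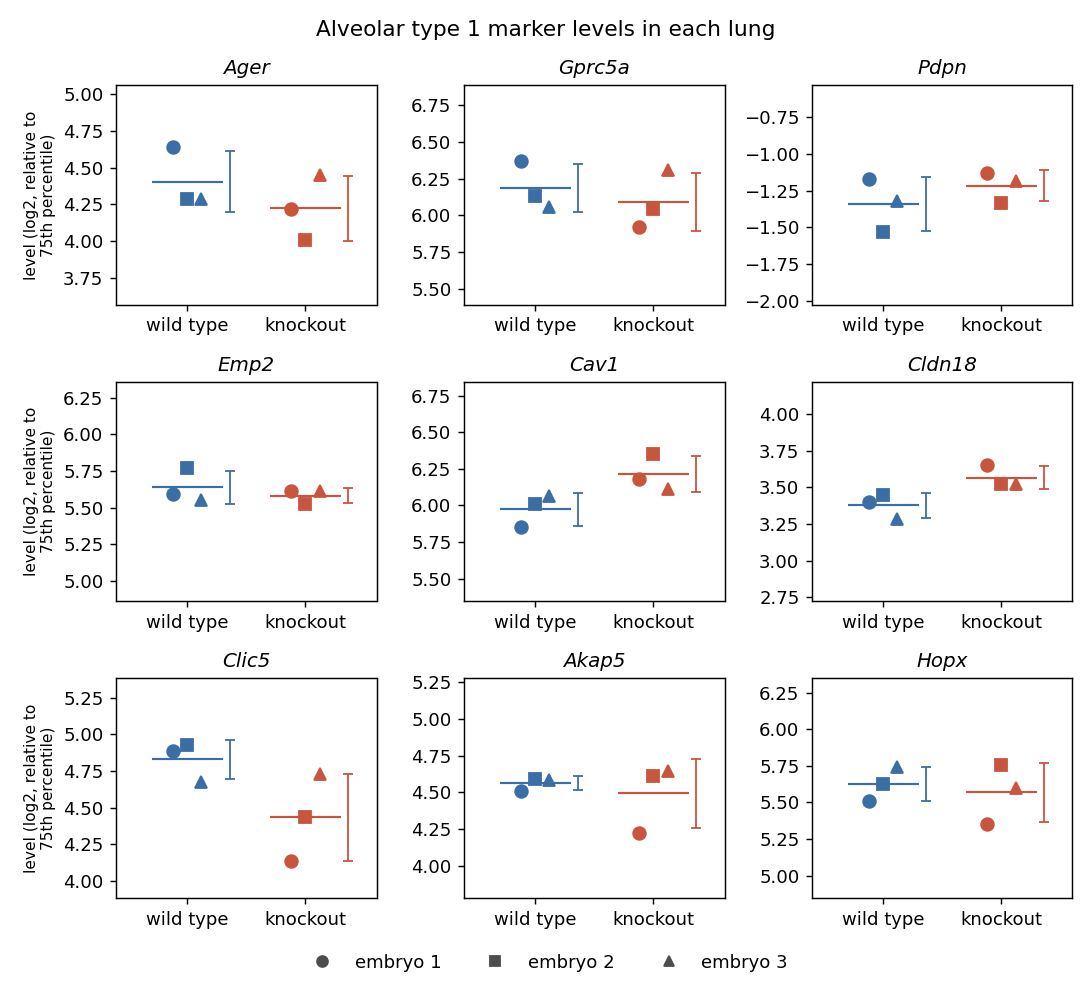
Level of each alveolar type 1 marker in each lung, on the log2 scale relative to the array's 75th percentile, at the probe used for the gene. Points are single lungs, horizontal lines are group means and bars are SDs (n = 3 each). Every panel spans 1.5 log2 units, and the labels do not give the embryo numbers as pairs. The groups overlap in 7 of the 9 panels, all except Cav1 and Cldn18.

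Among the membrane receptors, Ager encodes RAGE, the receptor for advanced glycation end products, which sits on the basal side of type 1 cells and is a widely used marker of this cell type. Its level was 4.64, 4.28 and 4.29 in wild types 1, 2 and 3 and 4.22, 4.00 and 4.45 in knockouts 1, 2 and 3, where 0 is the array's 75th percentile of intensity. Knockout 3 lay within the wild type range, and knockouts 1 and 2 lay below it. The difference was -0.18 (SE 0.16, 95% confidence interval -0.56 to 0.20; limma adjusted p = 0.511), or 1.13-fold, from 4.40 ± 0.21 to 4.22 ± 0.22 (SD, n = 3 each). Gprc5a, an orphan receptor known to be induced by retinoic acid, had levels of 6.37, 6.13 and 6.06 in the wild types and 5.92, 6.04 and 6.31 in the knockouts. The order of the arrays resembled that of Ager, with wild type 1 and knockout 3 highest in their groups. Its difference was -0.10 (SE 0.15, interval -0.44 to 0.25). Its other probe had a difference of -0.06, with levels from 4.27 to 4.62 in wild type and from 4.17 to 4.58 in knockout lungs.

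Pdpn encodes podoplanin, a mucin-like glycoprotein of the apical membrane that is also known as T1alpha. Its levels were -1.17, -1.53 and -1.32 in the wild types and -1.13, -1.33 and -1.18 in the knockouts, and the groups overlapped. The difference of 0.12 (SE 0.13, interval -0.18 to 0.43) was -0.0035 with median scaling, which lowers the differences of all genes by the same amount, and was above 0 in the other 19 alternatives. At the other probe the difference was 0.05. There the wild types spread from -2.22 to -1.60 and enclosed the knockouts, which lay between -1.98 and -1.78. Emp2, a membrane protein with 4 transmembrane segments of the PMP22 family, had levels of 5.59, 5.77 and 5.55 in the wild types and 5.61, 5.52 and 5.61 in the knockouts. All 6 values lay within 0.25 log2 units, the narrowest range of the 9 genes, and the difference was -0.06 (SE 0.11, interval -0.31 to 0.20). Emp2 is carried on chromosome 16, as Dppa2 is, and the other 8 measured markers are on other chromosomes (RefSeq gene table, GRCm38.p6).

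Cav1 and Cldn18 were the 2 markers in which the groups did not overlap, with higher levels in the knockouts. Cav1 encodes caveolin-1, the coat protein of the membrane pits called caveolae. Its levels were 5.85, 6.01 and 6.07 in the wild types and 6.18, 6.35 and 6.11 in the knockouts. The gap between the groups, from wild type 3 to knockout 3, was small beside the spread within them. The difference was 0.24 (SE 0.12, interval -0.04 to 0.52; limma adjusted p = 0.250), or 1.18-fold. At its other probe the levels were 1.91, 1.76 and 2.24 in the wild types and 2.51, 2.23 and 2.55 in the knockouts. The groups overlapped there between wild type 3 and knockout 2. The difference at that probe was 0.46 (SE 0.16, interval 0.08 to 0.84), with an unadjusted p = 0.0236 and an adjusted p = 0.143 in limma over all 26656 probes. Between wild type 3 and knockout 3 the Cav1 difference was 0.04, and within slide 1 it was 0.18.

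Cldn18 encodes claudin-18, a tight junction protein of alveolar epithelium and stomach. Its levels were 3.40, 3.45 and 3.28 in the wild types and 3.65, 3.52 and 3.52 in the knockouts. All 3 knockouts lay above all wild types. The difference was 0.19 (SE 0.11, interval -0.06 to 0.44; limma adjusted p = 0.302), and it turned to -0.06 with another background correction (normexp). Groups did not overlap in 2 of the 9 markers, beside 31.3% of all features tested, and nothing is read from so small a count. With the knockouts higher, as in both markers, the background was 17.0%, and with the knockouts lower it was 14.3%.

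In the 250 bases before the annotated starts of the markers (RefSeq, GRCm38.p6), the letters that the TEAD factors and Nkx2-1 are known to bind were looked for, as a description. Entries were found for 8 of the 10 markers, with 11 windows in all. The TEAD letters GGAATG, on either strand, were in 0 of the 11 windows and in 12.6% of all 32851 windows. The NKX2-1 letters CAAGTG, on either strand, were in 1 of the 11 and in 11.6% of all windows. That window belongs to a start of Cldn18, and it is shown because it is the only match among the markers, at chr9:99710126-99710191 on the minus strand, 5′ to 3′, with the match in capitals. The match begins 98 bases before the start.
Cldn18: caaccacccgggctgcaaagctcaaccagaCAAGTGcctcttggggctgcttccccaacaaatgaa
A match of letters is not a binding site, and which of the annotated starts the array probe reads is not known.

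Clic5 encodes a chloride intracellular channel protein that is bound to the actin cortex. It had the greatest difference among the 9 markers in size and the widest range over arrays, 0.79 log2 units. Its levels were 4.89, 4.93 and 4.68 in the wild types and 4.14, 4.44 and 4.73 in the knockouts. Knockouts 1 and 2 lay below all wild types, while knockout 3 lay above wild type 3. The difference was -0.40 (SE 0.17, interval -0.80 to 0.00; limma unadjusted p = 0.0513, adjusted p = 0.197), or 1.32-fold. At the other Clic5 probe it was -0.16 (SE 0.13), with wild types at 2.46, 2.41 and 2.23 and knockouts at 2.11, 2.10 and 2.41. The same 2 knockouts were lowest at that probe. Between wild type 3 and knockout 3 the Clic5 difference was 0.05, within slide 1 it was -0.18, and without knockout 1 it was -0.25.

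Akap5 encodes an anchoring protein that holds protein kinase A at the membrane. Its levels were 4.51, 4.59 and 4.59 in the wild types and 4.22, 4.61 and 4.65 in the knockouts. Knockout 1 stood apart from the other 5 arrays, which lay between 4.51 and 4.65, and the difference was -0.07 (SE 0.14, interval -0.40 to 0.26). Hopx encodes an atypical homeodomain protein that does not bind DNA. Its levels were 5.51, 5.62 and 5.74 in the wild types and 5.35, 5.75 and 5.60 in the knockouts. The groups overlapped and knockout 1 was again the lowest array. The difference was -0.06 (SE 0.14, interval -0.38 to 0.27).

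**Figure D2:**
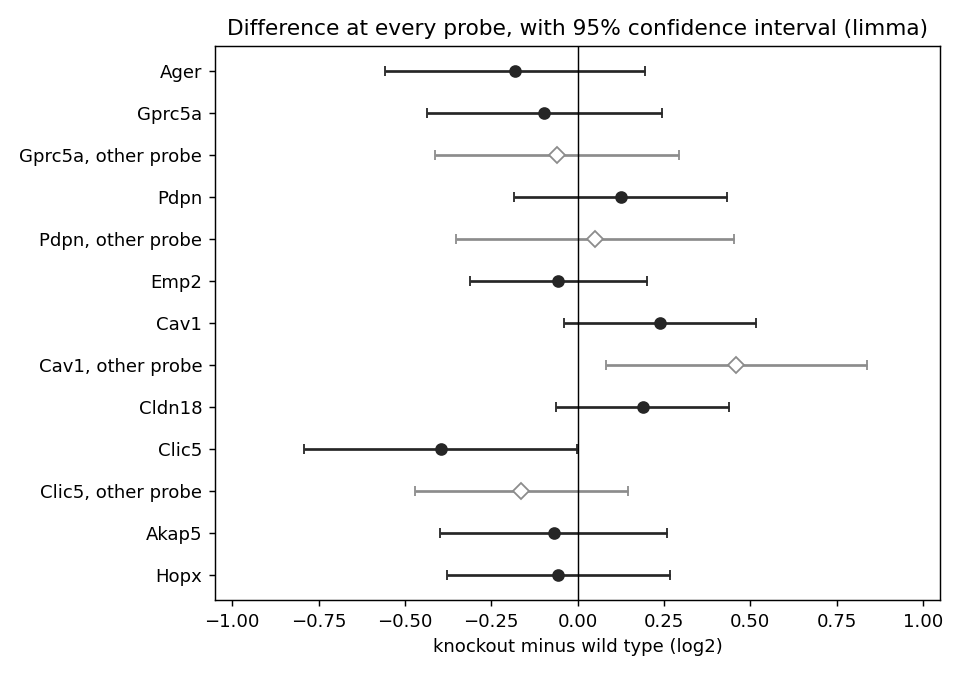
Knockout minus wild type difference (log2) at each of the 13 probes of the 9 markers, with its 95% confidence interval from limma fitted over all 26656 probes (n = 3 each). Filled circles are the probes used for the genes and open diamonds are other probes of the same gene. Differences run from -0.40 at Clic5 to 0.46 at the other Cav1 probe.

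The 4 genes with a pair of probes had the same sign at both. Of the 13 probes 0 passed (limma, adjusted over 26656 probes), against 1.37% of all probes. Groups did not overlap at 2 of the 13 probes, those given above for Cav1 and Cldn18, and at 30.6% of all probes. The other Cav1 probe and the Clic5 probe of the greater difference (limma unadjusted p = 0.0497 in the fit over probes) were the only ones with an unadjusted p under 0.05. Probes of a gene are read from the same RNA and are not replicates.

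The spread of the markers within groups was near that of other features. Their median SD within groups was 0.16 log2 units, beside 0.18 over all features and 0.14 over the 11293 features at least as bright as the Pdpn probe. Their median size of change was 0.12, beside 0.21 over all features and 0.16 over those 11293 features. Those features are not matched to the markers in level. Of all features 43.1% were lower than Pdpn, and 92.7% to 99.3% were lower than each other marker. Cldn18 and Emp2 had the smallest SDs within groups, 0.08 and 0.09, and 8.37% and 11.5% of all features had smaller ones. Clic5 and Ager had the greatest, 0.23 and 0.21.

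The arrays did not shift the markers as one block. Knockout 1 was the lowest array in 4 of the 9 markers (Gprc5a, Clic5, Hopx and Akap5) and the highest in 2 (Pdpn and Cldn18). Over all features it was the lowest in 20.4% and the highest in 21.8%. Knockouts 1 and 2 were both below knockout 3 in 5 markers (Ager, Emp2, Gprc5a, Clic5 and Akap5), as in 28.6% of all features, and both below all wild types in 3 (Ager, Gprc5a and Clic5), as in 20.5%. Knockout 3 lay within the wild type range in 6 markers, as in 40.3% of all features. It shared its slide with wild types 1 and 2 and its raw data number with wild type 3. Over all 6 arrays the median difference of the 9 markers was -0.06. Restricted to slide 1 it was 0.06, it was 0.06 for knockout 3 against wild type 3, and it was 0.03 for all knockouts against wild type 3.

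Likeness to the profile of Ager was measured as the root mean square difference between levels over the 6 arrays, each gene centred on its own mean. The nearest named features were Layn (0.046 log2 units), Cdh5 (0.046), Man2b1 (0.046), Evpl (0.052) and Emid1 (0.054). Cdh5 encodes the cadherin of endothelial junctions. Among the markers Gprc5a was nearest to Ager, at 0.111, with 0.862% of all features nearer. Pdpn and Emp2 followed at 0.193 and 0.196, and Cav1 was farthest at 0.341, with 65.1% of features nearer. To the mean profile of the 9 markers the nearest were Cd164 (0.016), Zbtb11os1 (0.023), Pmepa1 (0.023), Cmtm8 (0.026) and Aebp2 (0.027). Emp2 was the nearest marker (0.089), with 5.30% of features nearer, and each marker is itself part of that mean. With 6 arrays and 19856 features, near profiles are common, and the values describe these lungs only.

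A wider list of 25 other type 1 cell genes was read in the same fit. Of its 22 measured genes 0 rose, 0 fell and 22 did not pass (limma), with 10 differences above and 12 below 0 and a median of -0.07. An unadjusted p under 0.05 was found for 8 of the 22, beside 25.7% of all features. The spread of these genes was wider than that of the 9 markers, from -1.10 to 1.15. Igfbp2, a secreted binding protein of insulin-like growth factors, had levels of 0.10, -0.39 and 0.21 in the wild types and 1.36, 1.23 and 0.77 in the knockouts. All knockouts were higher, by 1.15 on average (SE 0.21, 2.22-fold; adjusted p = 0.0553). Aqp5, the water channel of the apical membrane, had levels of 4.48, 4.26 and 3.70 in the wild types and 2.96, 2.64 and 3.53 in the knockouts. The groups did not overlap, with wild type 3 and knockout 3 closest to each other, and the difference was -1.10 (SE 0.28, 2.15-fold; adjusted p = 0.0821).

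Of the other genes of smallest p in the wider list, S100a14, an epithelial calcium-binding protein, differed by -0.68 (adjusted p = 0.0694), Pxdc1 by -0.68 (0.0743), Col4a3, a basement membrane collagen chain, by -0.67 (0.0910; other probe, -0.56) and Cyp2b10, a cytochrome P450, by -0.83 (0.111). The Cyp2b10 probe exceeded background on 5 arrays, and its difference became 0.59 with normexp background correction. Whether genes of this list passed in an alternative depended on single arrays and on the model. In the fit without wild type 3, both remaining wild types had Y-linked signal and no knockout did. Genotype and that signal cannot be told apart there, for these genes or for those named below as passing without wild type 3. That fit called 1971 of all features, beside 266 in the main fit, which also bears on the genes named below. Without wild type 3, Igfbp2 (1.27, adjusted p = 0.0307), Aqp5 (-1.33, 0.0370), S100a14 (-0.76, 0.0454), Pxdc1 (-0.76, 0.0494) and Col4a3 (-0.81, 0.0453) passed, and without knockout 3 Igfbp2 passed (1.32, 0.0387). With the raw data number as a random block, Igfbp2, S100a14, Pxdc1 and Aqp5 passed, with limma adjusted p-values from 0.0288 to 0.0405. The fit with this block called 1701 of all features. None of the 9 markers passed in any of these. A term for the arrays with Y-linked signal leaves wild type 3 as the only wild type compared with the knockouts. With this term the differences were 0.91 for Igfbp2, -0.65 for Aqp5, -0.52 for S100a14, -0.51 for Pxdc1 and -0.40 for Col4a3. With the raw data number as a fixed term, which compares knockout 3 with wild type 3, they were 0.56, -0.16, -0.39, -0.23 and -0.48. Across the 20 alternatives the adjusted p of Igfbp2 lay between 0.0288 and 0.992, and that of Aqp5 between 0.0370 and 0.993.

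**Figure D3:**
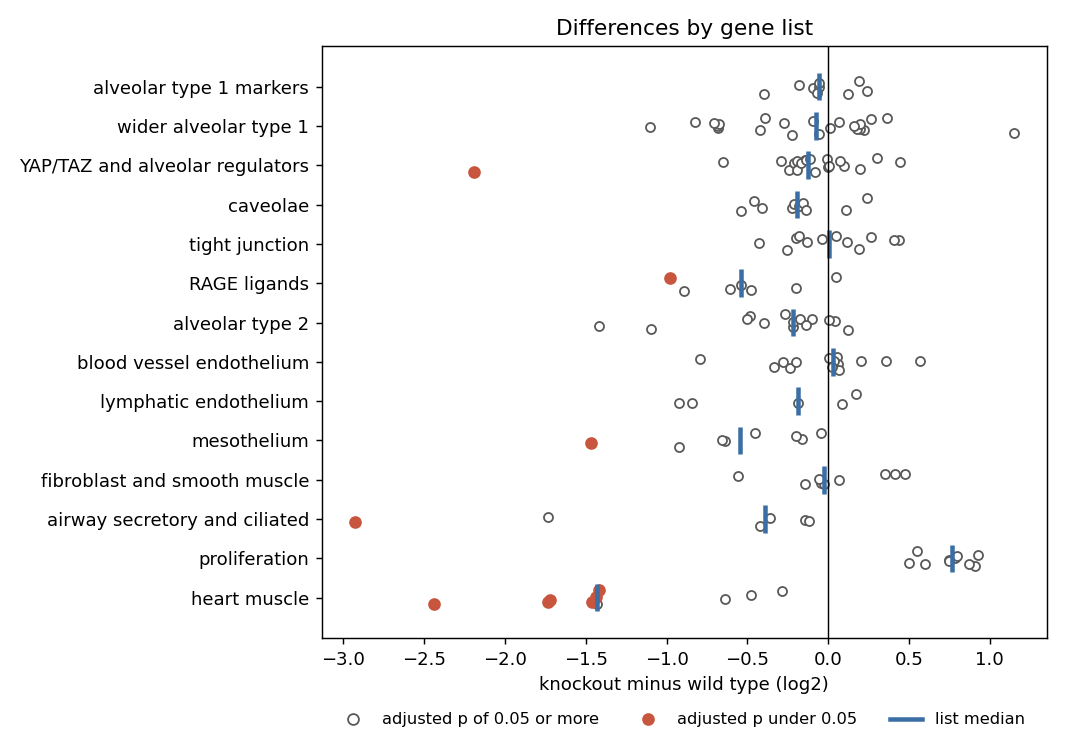
Knockout minus wild type difference (log2) of each measured gene, by list (n = 3 lungs each). Open circles did not pass, filled circles had a limma adjusted p under 0.05 over all features, and blue bars are list medians; vertical scatter within a list only separates points. The alveolar type 1 markers lie between -0.40 and 0.24 and none is filled.

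The regulators of the alveolar epithelium were read next, with the YAP/TAZ coactivators, their TEAD partners and target genes. Of 20 genes 0 rose, 1 fell and 19 did not pass, with a median of -0.12. The gene that fell was Ankrd1, a target of YAP/TAZ that is also known as the cardiac ankyrin repeat protein. Its levels were -0.87, -1.40 and -1.56 in the wild types and -3.32, -3.36 and -3.72 in the knockouts, a fall by 2.19 (SE 0.21, 4.58-fold; adjusted p = 0.0101; over the 20 alternatives 0.00588 to 0.607). The call was lost in 6 of the 20, and the difference was -1.03 with normexp and -1.91 with the term for the arrays with Y-linked signal, both among those 6. Next in p were Cebpa (-0.65; other probe, -0.36), a factor of type 2 cells, and the histone deacetylase gene Hdac2 (0.30), neither of which passed; without wild type 3, Cebpa passed (-0.88, limma adjusted p = 0.0210), and its difference was -0.19 with the term for the arrays with Y-linked signal and -0.15 for knockout 3 against wild type 3. In the heart muscle list 6 of 10 genes fell (limma adjusted p under 0.05), beside 0.619% of all features, and 0 rose. Like the other lists, it was chosen with earlier results of these data known, so that this count is a description. With normexp 0 of all features passed, and so none of these 6. The list moved in the same direction as Ankrd1, with all 10 differences below 0 and a median of -1.43. Its summed level, in intensity relative to the 75th percentile, was 59.4 to 70.2 in the wild types and 34.7 to 48.3 in the knockouts, with all 10 genes measured. This sum is mostly that of Myh7, which had a wild type mean of 5.25 and did not pass (-0.29). The part of this list in the Ankrd1 result was not tested. Hopx, which heart muscle also expresses, differed by -0.06, as given above.

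The partners of single markers were read in 3 short lists. For these and the lists below, 25.7% of all features had a limma unadjusted p under 0.05 and 1.34% passed. Of 10 caveolae genes 0 passed (3 at an unadjusted p under 0.05, limma), and the median was -0.20 with 8 genes below 0. Cav1 and Cav2, at 0.24 and 0.11, were the 2 above 0, whereas Cav3, the muscle caveolin (-0.54), Ehd2, an ATPase of the caveolar neck (-0.46; other probe, -0.29), and Cavin3 (-0.41) had the smallest p. Of 12 tight junction genes 0 passed (3 at an unadjusted p under 0.05, limma), with a median of 0.00 and 6 genes on either side of 0. Among those of smallest p were Cgn, which encodes cingulin (0.44), and Cldn4 (0.41). Another Cgn probe was above background on 2 arrays. Of 7 measured genes for known ligands of RAGE, 1 fell and 6 did not pass (5 of the 7 at an unadjusted p under 0.05, limma), with a median of -0.54. S100a8, a calcium-binding protein of neutrophils, fell by 0.98 (adjusted p = 0.0375), and S100a9 (-0.89) and S100a11 (-0.54) did not pass. The S100a8 call was lost in 14 of 20 alternatives, among them leaving out wild type 1, wild type 2, knockout 1 or knockout 2, with adjusted p-values from 0.102 to 0.142. Without wild type 3, S100a9 (-1.07) and S100a11 (-0.60) passed. Over the 20 alternatives S100a9 lay between -1.22 and -0.54 and S100a11 between -0.76 and -0.30.

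Type 2 cells, the surfactant-making neighbours of type 1 cells, gave 0 calls among 14 measured genes (3 at an unadjusted p under 0.05, limma) and a median of -0.22, with 11 genes below 0. The smallest p were those of Lyz2, a lysozyme (-1.09), Scd1, a fatty acid desaturase (-1.42), and Fasn, the fatty acid synthase (-0.40, and -0.76 at the other probe). Of the surfactant protein genes, Sftpc differed by 0.12, Sftpa1 by -0.18 (-0.51 at the other probe), Sftpb by -0.48 and Sftpd by -0.50. Without wild type 3, Lyz2 passed (-1.35, limma adjusted p = 0.0225), and without knockout 3, Scd1 passed (-1.80, 0.0337). With the term for the arrays with Y-linked signal the differences were -0.58 for Lyz2 and -0.99 for Scd1, and for knockout 3 against wild type 3 they were -0.19 and -0.24. Within slide 1 the median of the list was -0.26, and between wild type 3 and knockout 3 it was 0.01. The type 1 and type 2 lists thus both lacked calls, and the difference between their medians was not tested.

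The other cell types that carry a marker had the following levels. Of 14 blood vessel endothelial genes 0 passed (3 at an unadjusted p under 0.05, limma), with a median of 0.03 and summed levels of 156 to 182 in the wild types and 153 to 184 in the knockouts. Car4, a carbonic anhydrase of capillaries (-0.79), Pecam1 (0.57) and Tek (0.36) had the smallest p, and Car4 passed without knockout 3 (-0.98, limma adjusted p = 0.0257), with a range over the 20 alternatives of -0.98 to -0.34. The part of the endothelium in the Cav1 values was not tested. Of 5 measured lymphatic genes 0 passed (2 at an unadjusted p under 0.05, limma), and Prox1, the defining factor of this lineage, was below background on all 6 arrays. Their summed level was 12.7 to 14.5 in the wild types and 10.8 to 11.7 in the knockouts. This sum is mostly that of Ccl21a and Lyve1, with wild type means of 2.61 and 2.53, whose differences had opposite signs. Smallest in p were Ccl21a (-0.92) and Reln (-0.84), ahead of Lyve1 (0.17, and 0.47 at the other probe). Reln passed without wild type 3 (-1.11), with a range over the 20 alternatives of -1.12 to -0.31. Of 8 mesothelial genes 1 fell, Upk1b, a uroplakin (-1.47, adjusted p = 0.0375; lost in 12 of 20 alternatives, among them leaving out wild type 1 (-1.42), wild type 2 (-1.44), knockout 1 (-1.24) or knockout 3 (-1.45)). Aldh1a2 (-0.64) and Upk3b (-0.92) did not pass, and both passed without wild type 3 (-0.81 and -1.28). Over the 20 alternatives Aldh1a2 lay between -0.81 and -0.25 and Upk3b between -1.28 and 0.08. The mesothelial sum was 89.4 to 94.6 in the wild types and 72.8 to 90.5 in the knockouts. It is mostly that of Msln and Krt19, with wild type means of 5.60 and 5.19, beside 1.89 for Aldh1a2, the next brightest. Pdpn, which both of these cell types express, differed by 0.12, and their part in its level was not tested. In the stomach list, which bears on Cldn18, 3 genes could be tested and 0 passed (0 at an unadjusted p under 0.05, limma), while Tff1, Gkn1, Atp4a and Atp4b were below background on all 6 arrays. Of the fibroblast and smooth muscle genes 0 of 9 passed (1 at an unadjusted p under 0.05, limma; median -0.03), and of the airway basal genes 0 of 5 (3 at an unadjusted p under 0.05; median -0.44). Among the airway basal genes of small p, the probes of Krt14 and Trp63 were above background on only 5 of the 6 arrays. Of 6 measured airway secretory and ciliated genes 1 fell, the secretoglobin gene Scgb3a1 (-2.93, named after its value was seen), and their summed level was 74.0 to 129 in the wild types and 40.9 to 61.0 in the knockouts.

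**Figure D4:**
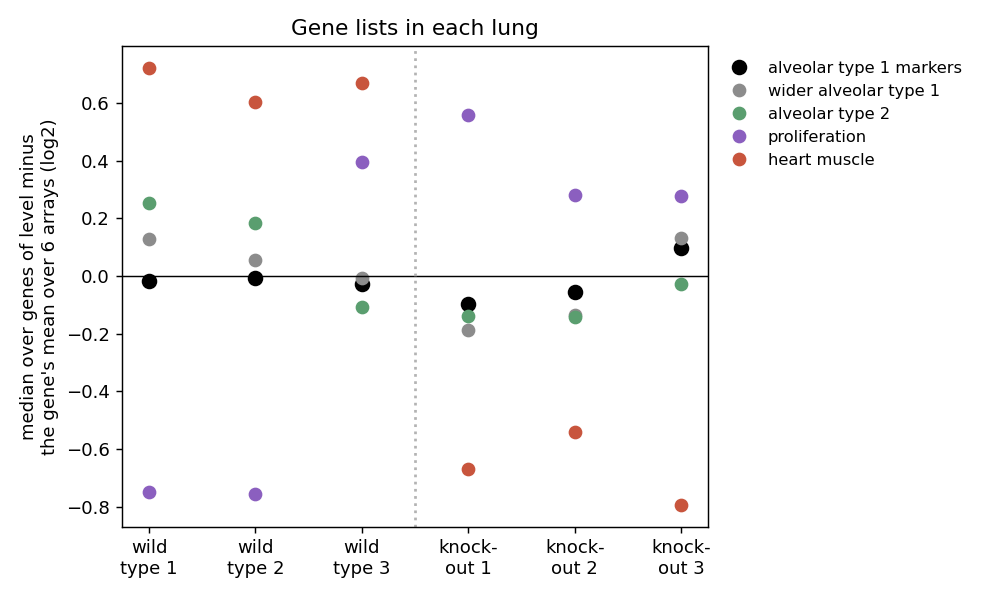
Median over the genes of a list of the level minus each gene's own mean over the 6 arrays (log2), for each lung. The alveolar type 1 markers stay between -0.10 and 0.10 on all arrays, while the heart muscle list runs from 0.72 to -0.79 and the proliferation list from -0.76 to 0.56.

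The array medians show how the markers stood among lists that moved with an array. The proliferation list, in which 0 of 10 genes passed (6 at an unadjusted p under 0.05, limma) and all 10 differences were above 0, was at -0.75 and -0.76 on wild types 1 and 2 and at 0.40 on wild type 3, and between 0.28 and 0.56 on the knockouts. The type 1 markers were at -0.02, -0.01 and -0.03 on the wild types and at -0.10, -0.06 and 0.10 on the knockouts. Single markers went both ways on wild type 3, which lay below both other wild types in Emp2, Gprc5a, Clic5 and Cldn18 and above both in Cav1 and Hopx. With a term for the arrays with Y-linked signal, that is wild types 1 and 2, the knockouts are compared with wild type 3 alone. The differences of the 9 markers then lay between -0.24 and 0.28.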

How the data were processed

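Total RNA of 6 whole lungs (3 wild type and 3 knockout embryos) was labelled with Cy3 and hybridised to Agilent whole mouse genome arrays with 1 colour, per the labels. The authors' scanner files, read with Agilent Feature Extraction 10.7.3.1 on an array design of build mm9 per the file headers, hold an intensity per spot (background-subtracted processed signal). The authors' deposited value table holds log2 values, which matched quantile-normalized log2 intensity minus the median of the wild types (correlation per array at least 0.992); GeneSpring GX is named in the design text, and no further step is given in the sources used here. No array had a saturated spot.

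From the intensities, log2 of the processed signal minus each array's 75th percentile was computed, control and outlier-flagged spots left out, and spots of a probe averaged. A probe was kept where every array of a group, wild type or knockout, had it well above background, with 1 probe per gene, the one of highest mean. Probes were named by accession through the RefSeq gene table (GRCm38.p6), which gave 26690 of 41174 probes a symbol; transcripts without one stayed as unnamed features. limma 3.58.1 (lmFit, eBayes, R 4.3.3) was fitted to all 19856 features with 3 arrays per group, with Benjamini-Hochberg adjustment, and a second fit took all 26656 probes. Reported p-values come from these limma fits, and the number of arrays limits their precision. The scripts were tested on simulated data.

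The members, gene lists and tests were chosen with earlier results of these data known. Genes were named by a fixed rule: all markers, genes called, the 6 of smallest p in the wider list, the 3 of smallest p in each other list, and the 5 nearest profiles. The heart, airway, fibroblast, stomach and proliferation lists are given by counts, and 1 gene that the rule names is not reported here. Alternatives were quantile normalization, median scaling, normexp background correction (offset 50, on the median signal because the mean signal is not in these files), the deposited table, 3 background filters, the mean over probes, slide, replicate or raw data number as a block, a term for or removal of arrays with Y-linked signal, and leaving out each array.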

Additional observations from a re-analysis of the deposited data

How the results depend on the processing

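Under all 20 alternatives 0 of the 9 markers passed (limma), but some of these alternatives called few or no features at all, as given below. Their median difference became -0.24 with normexp background correction, where the median over all features was 0.16, and the wider type 1 list's median became 0.20 with the raw data number as a fixed term, an alternative chosen after seeing the data. The cause of these shifts was not tested. Median scaling, which moves all features by the same amount, shifted the median of all features to -0.12 and that of the markers to -0.18, and testing all features without a background filter shifted the former to 0.14 and left the latter at -0.06.

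Of all features 266 were called, and the count stayed within 1.5 times of that with quantile normalization, median scaling, the deposited values, a filter on all 6 arrays and the mean over probes. It was 28 without a filter, 96 with a filter on at least 1 array, 23 with the slide as a block, 1701 with the raw data number as a random block, 17 with a term for the arrays with Y-linked signal, and from 33 (without wild type 1) to 1971 (without wild type 3) when 1 array was left out. It was 0 with normexp (1515 at an unadjusted p under 0.05), 0 without the arrays with Y-linked signal (1372) and 0 with the raw data number as a fixed term (1067). With the replicate number as a block it was 54. The deviations of same-numbered arrays correlated at -0.02, 0.04 and 0.03, and 2 of 6 arrays correlated best with their own number. These values showed no sign of pairing by replicate number, but so few arrays cannot exclude it.

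Some differences changed sign. Pdpn became -0.0035 with median scaling through the shift that all features share, and kept its sign in the other 19 alternatives. Cldn18 became -0.063 and Cyp2b10 0.59 with normexp. With the slide as a block Gprc5a became 0.057, Hopx 0.035 and Akap5 0.10. With the term for, or without, the arrays with Y-linked signal Emp2 became 0.031 and Gprc5a 0.035. With the raw data number as a fixed term Ager became 0.16, Emp2 0.063, Gprc5a 0.25, Clic5 0.051, Akap5 0.061 and Upk3b 0.084. When 1 array was left out Emp2 ran from -0.10 to 0.010, Hopx from -0.15 to 0.053 and Akap5 from -0.15 to 0.067. Cav1 kept its sign in all 20, between 0.04 and 0.35.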
